A study of Mus musculus with 15 samples.

Results

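Mouse stomachs collected while the pups fed on milk were compared with stomachs from the age of weaning onward. The suckling group held the libraries of postnatal day 5 (D5), week 1 (W1) and week 2 (W2), and the weaned group held week 3 (W3), week 6 (W6) and week 8 (W8). These 6 libraries were chosen by the age in their labels from 15 libraries that span E12.5 to W8. All mice were C57BL/6 without a transgene or treatment, and RNA was extracted from frozen whole stomach. The labels give ages only. The study states that mice of up to 2 weeks were taken regardless of sex and that older ones were male. The choice of sex thus differed between the groups, and its part in the results was not tested. The study places weaning in W3, so the W3 mice may have been at or just past the change of diet, and it describes postnatal replicates as single stomachs and those of most embryonic ages as pools. Each time point is 1 library, so the 3 time points of a group served as its replicates (n = 3 in each group), and the error of every value includes change with age within the group.

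The suckling stomach receives milk, which clots under the protease chymosin and delivers most of its energy as fat. At weaning the diet turns to solid food, and the gastric glands take on their adult form. Chief cells then secrete pepsinogen C and lipases, parietal cells secrete acid through the H+/K+-ATPase, and surface and neck cells secrete mucins. The mouse stomach also has a forestomach lined by squamous keratinocytes, which secretes none of these.

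Expression was given as FPKM, a count of sequenced fragments scaled by transcript length and by the size of the library, with entries of a gene symbol summed. Differences are on the scale log2(FPKM + 1), weaned minus suckling, with their SE. The added 1 shrinks the differences of weakly expressed genes and the spread between libraries where a gene is near 0. FPKM are shares of a library, and the 10 highest genes took 27.6% to 32.6% of the summed FPKM in the suckling libraries but 36.7% to 53.2% in the weaned libraries. The median difference over all genes tested was −0.43 as deposited. Median-ratio scaling, which divides each library by its median ratio to the geometric mean of the 6, moved this median to −0.00. Both scales are given below as the deposited and the median-ratio scale. Depth was similar, at 0.841 to 1.09 times that of D5, and 1 fragment was worth 0.0421 to 0.0552 FPKM (median over entries that carry 1 fragment).

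Some libraries stood apart before any comparison. The W8 library held almost no forestomach transcripts. Krt13, a keratin of squamous epithelium, was at 273 to 771 FPKM from D5 to W6 and at 5.96 FPKM at W8. Lor, the cornified envelope protein loricrin, was at 604 to 2167 FPKM in the first 5 libraries and at 6.49 FPKM at W8. Among the 6, the W1 library alone carried Xist, the RNA of the inactive X chromosome, at 22.8 FPKM (at most 0.155 in the others), and its Y-linked Ddx3y was at 0.0553 FPKM against 5.26 to 10.5 FPKM in the others. Alb, the albumin made by liver, was at 65.4 FPKM at W3 and at 0.672 to 15.9 FPKM in the others. A pair of RNAs without poly(A) tails, U3 (Rnu3b1) and the RNase P RNA (Rpph1), were higher in the weaned libraries, Rnu3b1 by 2.19 ± 0.50 and Rpph1 by 2.19 ± 0.53 (log2, deposited scale). The part of these differences in the results below was not tested, except where a value without W8 is given. Some stomach markers were high in all 6, with Atp4a at 516 FPKM or more and Pgc at 1753 FPKM or more. Others were not, with Muc5ac at 3.39 and 4.40 FPKM at D5 and W1 and Muc6 at 17.8 FPKM at W1.

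**Figure D1:**
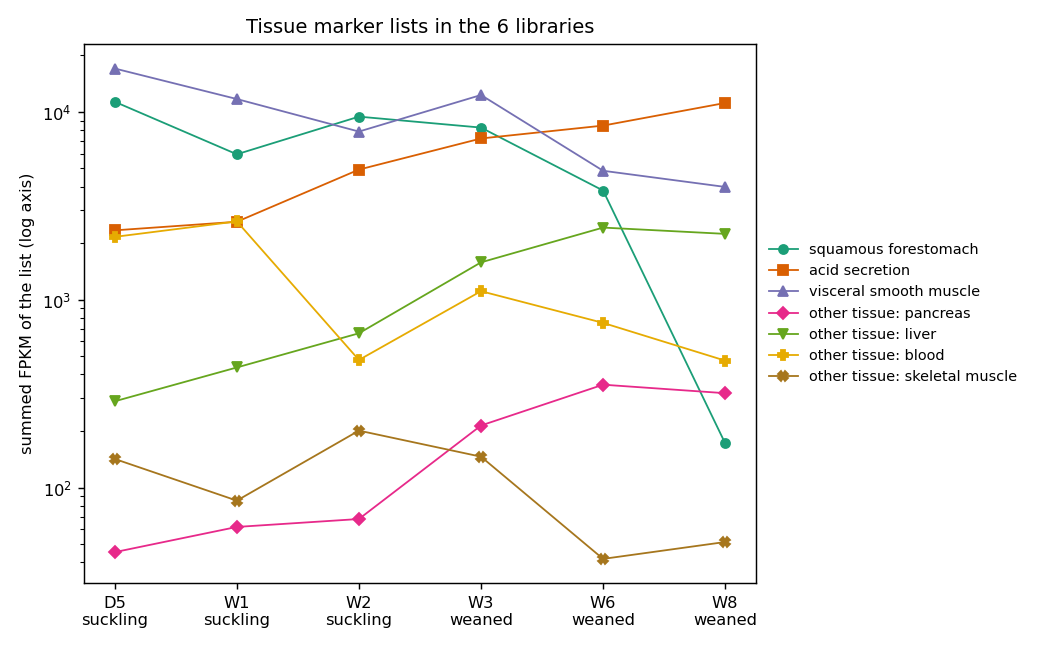
Summed FPKM of 7 marker lists (log axis) in the 6 libraries, with a line per list. The squamous forestomach list summed to between 3815 and 11332 FPKM from D5 to W6 and to 172 FPKM at W8, and the liver list followed its member Apoa1.

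Of 15476 genes with an FPKM of at least 1 in any of the 6 libraries, 5901 differed at an adjusted p under 0.05 on the deposited scale (limma, Benjamini-Hochberg). These were 535 higher in weaned (3.46% of genes tested) and 5366 higher in suckling (34.7%). On the median-ratio scale 2839 genes passed, 1629 higher in weaned (10.5%) and 1210 higher in suckling (7.82%). A gene is said to be called, or to have risen or fallen, when it passed on both scales in the same direction. This held for 516 genes higher in weaned (3.33% of genes tested) and 1210 genes higher in suckling (7.82%), and for none in opposite directions. In 511 and 1210 of these, respectively, no library of one group overlapped with the other group on either scale. Groups that do not overlap were common over all genes tested. As deposited, 935 of the 15476 genes lay wholly higher in weaned and 7958 wholly higher in suckling. After median-ratio scaling these counts were 3883 and 3212. In the lists below, counts of called genes are to be read beside 3.33% and 7.82% of all genes tested. Bulk RNA cannot tell fewer cells of a type from less RNA per cell, which holds for every result below.

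These calls need all of D5, W1 and W6, and on the median-ratio scale also W8. Without D5, W1 or W6, 5, 8 and 2 genes passed on the deposited scale (5645, 6616 and 5675 at an unadjusted p under 0.05), while 4671, 6712 and 3513 passed without W2, W3 or W8. On the median-ratio scale 0, 3, 2 and 3 genes passed without D5, W1, W6 or W8. The adjusted p of the genes that passed on each scale lay close to the threshold, with a median of 0.027 on the deposited and 0.036 on the median-ratio scale. These medians cover all genes that passed on that scale, whether or not they were called. At an adjusted p under 0.01 only Prok1 and Zg16 passed as deposited and only Prok1 after median-ratio scaling. On the deposited scale no gene list kept more than 1 passing gene without D5, W1 or W6. The plot of the gene lists shows the range of each median difference over the 6 fits with a library left out.

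**Figure D2:**
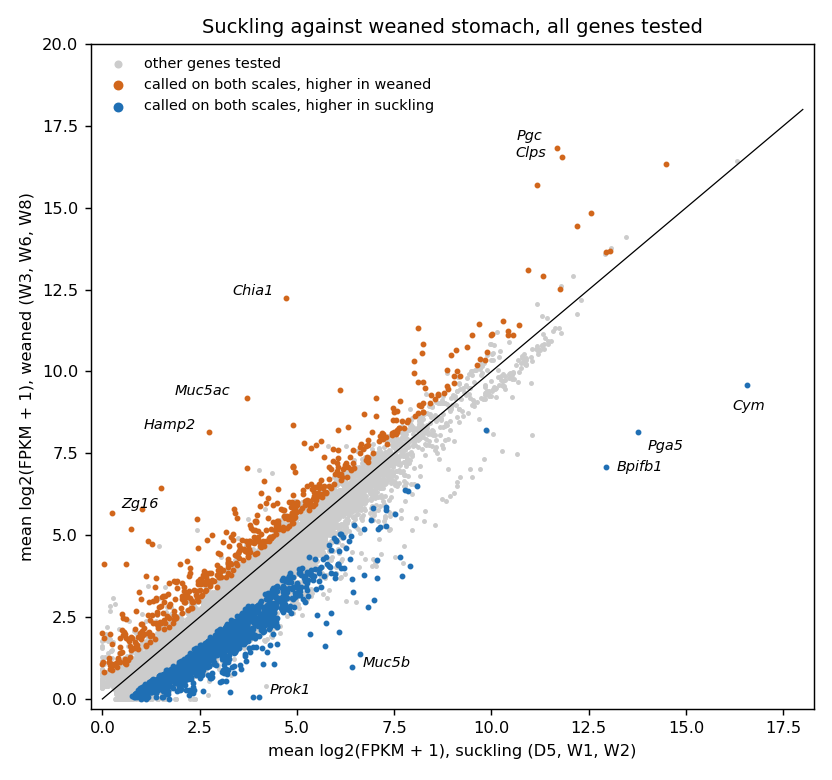
Mean log2(FPKM + 1) of the 3 suckling libraries (x axis) and the 3 weaned libraries (y axis) for the 15476 genes tested, as deposited. The 516 genes called higher in weaned lie above the line of equal values and the 1210 called higher in suckling lie below it, and Cym, Pga5 and Bpifb1 lie farthest below it among genes of high FPKM.

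The gastric proteases exchanged places. Of 5 measured members of this list, Pgc rose, Cym and Pga5 fell, and the other two were not called. Cym, the milk-clotting protease chymosin, was at 71608, 117136 and 106792 FPKM at D5, W1 and W2 and at 7718, 307 and 194 FPKM at W3, W6 and W8. W3 thus lay between the groups and the adult level was reached by W6. The fall was −6.96 ± 1.25 on the deposited and −6.42 ± 1.23 on the median-ratio scale (limma adjusted p = 0.019 and 0.031). Pga5, a pepsinogen A, was at 15901, 27728 and 6196 FPKM in the suckling and at 689, 223 and 151 FPKM in the weaned libraries, a difference of −5.61 ± 0.68 as deposited. At W2 Pga5 was already below its D5 and W1 values, whereas Cym was still above its D5 value. Pgc, the pepsinogen of the adult chief cell, was at 1753, 1847 and 10781 FPKM and then at 86122, 122459 and 151321 FPKM, a difference of 5.16 ± 0.67 as deposited and 5.70 ± 0.73 after median-ratio scaling. Its W2 value stood above D5 and W1 but far under W3. Ctse, the intracellular protease cathepsin E, differed by 0.69 ± 0.31 and was not called.

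Prok1 had the smallest adjusted p of all genes tested. It codes for prokineticin 1, a secreted peptide first known for contracting gut muscle. Prok1 was at 16.0, 18.4 and 11.8 FPKM in the suckling libraries. In the weaned libraries it was at 0.0366, 0.0283 and 0.0446 FPKM, close to the median worth of 1 fragment. With the added 1 such low values hardly vary on the log scale, which lowers the SE and the p-value. The difference was −3.97 ± 0.18 as deposited and −3.69 ± 0.18 after median-ratio scaling (limma adjusted p = 0.00091 and 0.0031), and with a library left out it passed in 6 of 6 fits as deposited and in 5 of 6 after median-ratio scaling. Prok1 and Cym are neighbors on chromosome 3, at 107232794 to 107239707 and 107211295 to 107221732 (GRCm38), and 11.1 kb with no other listed gene separates them. Both rose through fetal life, Prok1 from 0.230 FPKM at E12.5 to 7.16 at E18.5 and 16.4 at D3, and Cym from 323 to 35716 and 73934 FPKM.

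The bases just before the start sites of these neighbors, and of Pgc and Chia1, which moved the other way, are shown to set both pairs side by side. They are the 100 bases upstream of each RefSeq start site (GRCm38.p6), which coincides with the start of the gene in the deposited loci, and capitals mark TATAAA, searched on both strands. The stretches lie at chr3:107221733-107221832 (Cym, minus strand), chr3:107239708-107239807 (Prok1, minus strand), chr17:47726742-47726841 (Pgc, plus strand) and chr3:106113282-106113381 (Chia1, plus strand).
Cym: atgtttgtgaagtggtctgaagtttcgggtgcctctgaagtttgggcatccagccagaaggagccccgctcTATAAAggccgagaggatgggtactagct
Prok1: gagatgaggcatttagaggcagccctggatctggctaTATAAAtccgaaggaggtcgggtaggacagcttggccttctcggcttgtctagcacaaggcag
Pgc: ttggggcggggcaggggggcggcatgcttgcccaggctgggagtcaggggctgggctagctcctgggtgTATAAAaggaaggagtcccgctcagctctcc
Chia1: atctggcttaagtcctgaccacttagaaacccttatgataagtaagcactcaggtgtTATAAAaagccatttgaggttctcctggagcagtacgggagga
Each stretch holds TATAAA, beginning 29 bases before the start in Cym, 63 in Prok1, 31 in Pgc and 43 in Chia1. Among all 32851 promoters of the table, 5.56% hold it in this window. The share was 3.14% for promoters of genes tested, 8.18% for those of genes called higher in weaned and 3.67% for those of genes called higher in suckling. The table held promoters of 10719 of the 15476 genes tested. A match in a window describes its letters only.

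Other secreted enzymes of the gastric glands rose with Pgc. Of 18 measured genes of chief cell secretion, 7 were called higher in weaned and 0 higher in suckling, with a median difference of 0.37 as deposited (range 0.22 to 0.51 with a library left out) and 0.90 after median-ratio scaling, against −0.43 and −0.00 for all genes. Chia1, an acid-stable enzyme that digests chitin, had the largest rise of all called genes. Chia1 was at 11.3, 14.1 and 98.4 FPKM before weaning and at 1599, 7548 and 9319 FPKM after it, a difference of 7.51 ± 0.93 as deposited and 8.04 ± 1.02 after median-ratio scaling (limma adjusted p = 0.019 and 0.031). It had stayed between 6.47 and 7.43 FPKM through fetal life. Clps, the colipase that anchors lipase to fat droplets, went from 1959, 3161 and 7482 FPKM to 52594, 128680 and 126586 FPKM, a difference of 4.72 ± 0.54. Pla2g1b, a secreted phospholipase, went from 1312, 1710 and 5435 FPKM to 29727, 77308 and 65295 FPKM, a difference of 4.53 ± 0.57. Pnliprp2, a lipase of the pancreatic family, rose by 3.45 ± 0.71 and had its highest value, 406 FPKM, at W3. In all 4 genes W2 was the highest of the suckling libraries. Gif, the intrinsic factor that binds vitamin B12 and that mouse chief cells secrete, rose by 1.58 ± 0.41 and was counted on the lists of both chief cell and acid secretion.

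**Figure D3:**
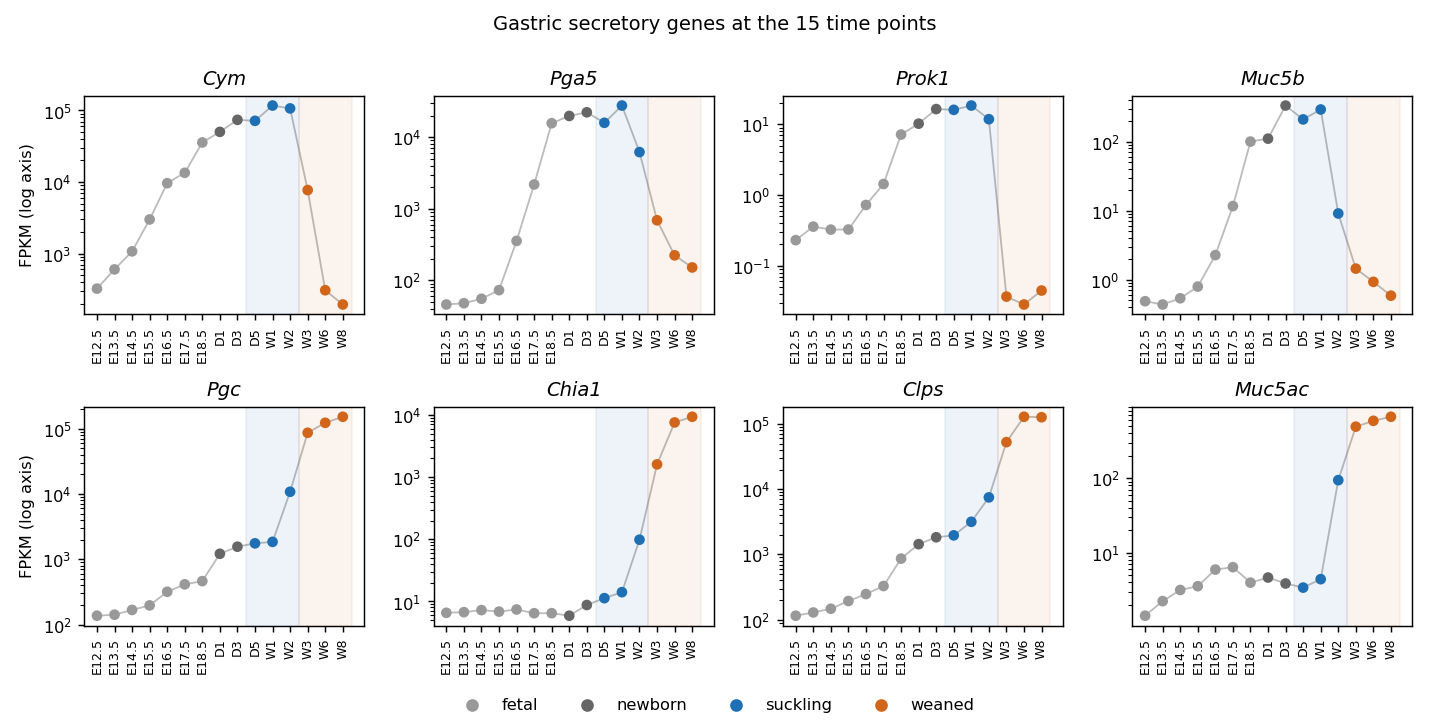
FPKM (log axes) of 8 gastric genes at the 15 time points, 1 library per point, with the suckling and weaned libraries shaded. Cym, Pga5, Prok1 and Muc5b rise before birth and fall from W2 or W3, and Pgc, Chia1, Clps and Muc5ac reach their highest values at W6 or W8.

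Several genes best known from the pancreas rose with them. On the pancreas list, 5 of 15 measured genes were called higher in weaned, beside 3.33% of all genes tested. The list summed to 45.3 to 68.0 FPKM in the suckling and 214 to 353 FPKM in the weaned libraries. Zg16, a lectin of secretory granules that is also made by mucous cells, was at 0.197, 0.104 and 0.252 FPKM and then at 28.3, 83.1 and 53.5 FPKM. The difference was 5.44 ± 0.35 as deposited and 5.73 ± 0.45 after median-ratio scaling (limma adjusted p = 0.0052 and 0.029), and with a library left out it passed in 6 of 6 fits as deposited and in 3 of 6 after median-ratio scaling. The trypsins Try4 and Try10 rose by 4.80 ± 0.72 and 4.07 ± 0.76, from at most 2.45 FPKM to 103 and 32.9 FPKM at W8. Reads of such near-identical trypsin copies may be split between them, so the sharing out is uncertain. The amylase Amy2a5 rose by 1.93 ± 0.47. Another 9 genes of the pancreas list did not reach 1 FPKM in any of the 6 libraries. Among these, the lipase Pnlip was at 0.043 to 0.731 FPKM, the carboxypeptidase Cpa1 at 0 to 0.212 FPKM and the insulin gene Ins2 at 0 in all 6 libraries. The chymotrypsin Ctrb1 was at 2.83, 6.04 and 1.05 FPKM in the suckling and at 0.757, 2.41 and 0.744 FPKM in the weaned libraries and was not called. The part of pancreas tissue in these results was not tested.

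Genes of acid secretion were called in 1 direction, as higher in weaned. Of 20 measured acid secretion genes, 11 were called higher in weaned, 0 higher in suckling and 9 in neither direction. The median difference was 1.02 as deposited (0.70 without W8) and 1.38 after median-ratio scaling (1.18 without W8). Atp4a, the catalytic subunit of the acid pump, was at 634, 516 and 1149 FPKM and then at 1519, 2213 and 3289 FPKM, a difference of 1.62 ± 0.37 as deposited and 2.17 ± 0.42 after median-ratio scaling. Atp4b, its partner subunit, was at 624, 671 and 1330 FPKM and then at 2203, 2894 and 3404 FPKM, a difference of 1.76 ± 0.32. Clic6, an intracellular chloride channel protein of parietal cells, rose by 1.54 ± 0.27. The acid pump genes were thus well expressed at D5, unlike Chia1. W8, the library without forestomach, had the highest Atp4a, Atp4b and Clic6 of all 6.

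Mucus genes held a pair that moved in opposite directions. Muc5ac and Muc5b, coding for gel-forming mucins, lie next to each other on chromosome 7, at 141788958 to 141819226 and 141838946 to 141873085. Muc5ac, the mucin of the gastric surface, was at 3.39, 4.40 and 94.3 FPKM and then at 494, 592 and 671 FPKM. Muc5b, better known from airways and salivary glands, was at 209, 291 and 9.06 FPKM and then at 1.44, 0.926 and 0.584 FPKM. At W2 Muc5b was already well below D5 and W1, while Muc5ac was above them but far under W3. The differences were 5.47 ± 1.07 and −5.45 ± 1.15 as deposited (limma adjusted p = 0.019 and 0.020) and 5.97 ± 1.11 and −5.05 ± 1.18 after median-ratio scaling. Muc6, the mucin of neck and pyloric gland cells, rose by 2.0 ± 0.53, with 259 FPKM at W8 against 76.6 to 91.9 FPKM at W3 and W6. On the whole list, 12 of 31 measured genes were called higher in weaned and 1, Muc5b, higher in suckling, with a median of 0.88 as deposited (0.54 to 1.38 with a library left out) and 1.40 after median-ratio scaling. Gkn1 and Gkn2, secreted gastrokines of surface cells, were at 2758 to 9986 FPKM in the suckling and at 19070 to 37678 FPKM in the weaned libraries and rose by 2.24 ± 0.38 and 2.30 ± 0.37. Clca3 (4.94 ± 0.49) and Fcgbp (3.47 ± 0.62), secreted partners of mucin in mucous cells, were also among the largest rises.

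The endocrine genes were mixed. Of 24 measured members of the hormone list, 6 were called higher in weaned and 1 higher in suckling, beside 3.33% and 7.82% of all genes tested. The medians were 0.20 and 0.56 on the deposited and median-ratio scales. Gast, which codes for gastrin, the hormone of the antrum that drives acid secretion, was at 170, 93.3 and 72.9 FPKM and then at 353, 519 and 387 FPKM. Gast rose by 1.97 ± 0.32 as deposited and 2.51 ± 0.34 after median-ratio scaling. Hdc, the enzyme of histamine synthesis in enterochromaffin-like cells, and Chga, a granule protein of endocrine cells, rose by 1.74 ± 0.48 and 1.98 ± 0.53. Pyy, the gut peptide YY, went the other way, from 33.0, 31.7 and 30.0 FPKM to 11.3, 7.18 and 10.1 FPKM, a difference of −1.65 ± 0.19 as deposited and −1.14 ± 0.13 after median-ratio scaling. Pyy varied little among the suckling libraries and more among the weaned libraries, and the groups did not overlap.

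Genes of ketone and fat metabolism moved in both directions. Oxct1, which starts the use of ketone bodies as fuel, went from 48.4, 40.5 and 65.8 FPKM to 142, 167 and 201 FPKM, a rise of 1.72 ± 0.22. Angptl4, a secreted inhibitor of lipoprotein lipase, was at 27.3, 28.2 and 10.5 FPKM and then at 0.964 to 1.36 FPKM, a difference of −3.33 ± 0.35. The lipase that it inhibits, Lpl, rose by 1.33 ± 0.28. Acot1 and Acot2, thioesterases that release fatty acids from coenzyme A, fell by 3.24 ± 0.60 and 1.82 ± 0.17 (log2). They are close paralogs whose reads may be shared. Of the 41 measured genes of the list, 8 were called higher in suckling and 3 higher in weaned, beside 7.82% and 3.33% of all genes tested. The median of the list changed sign with the scale, at −0.30 as deposited and 0.21 after median-ratio scaling.

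**Figure D4:**
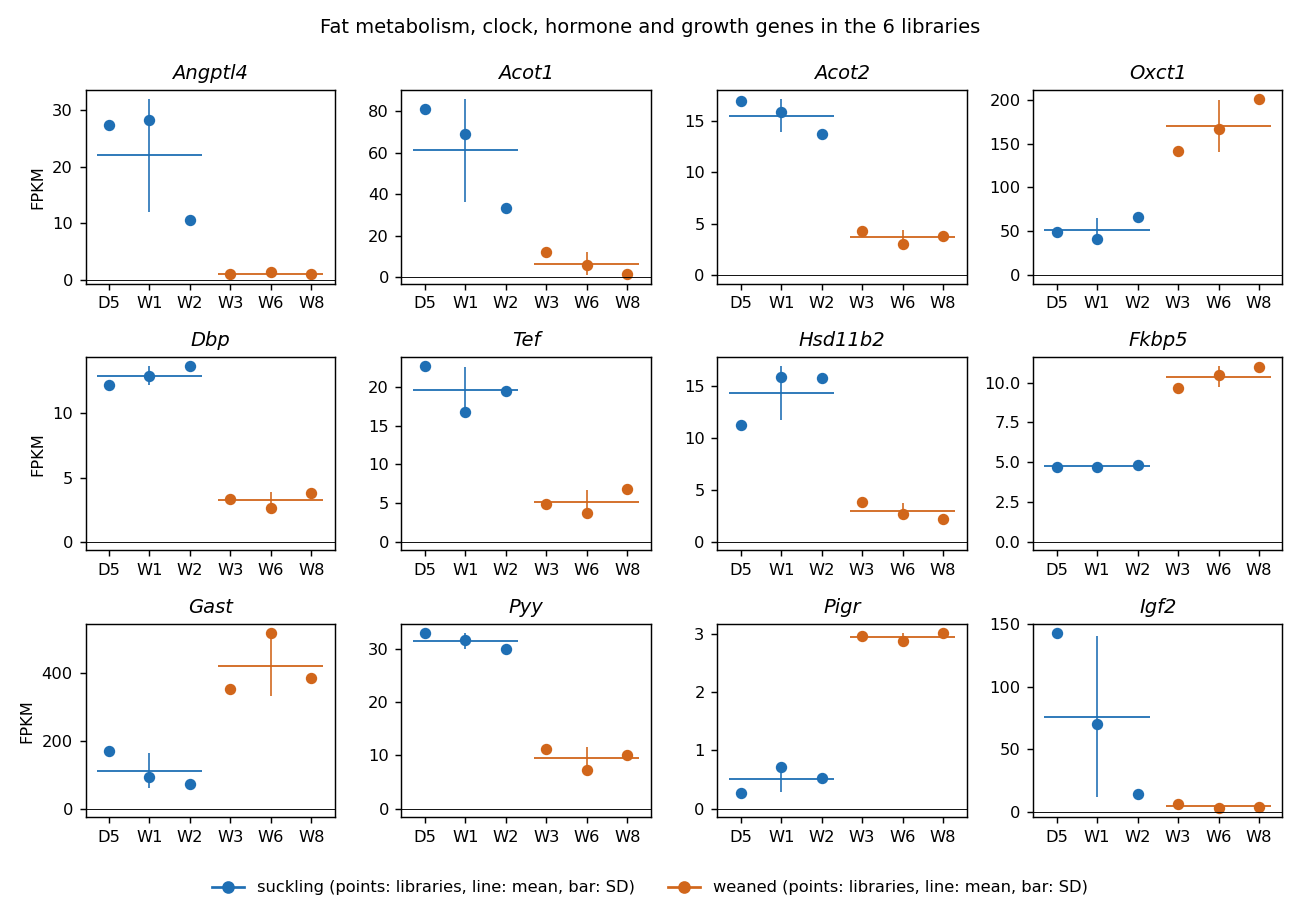
FPKM of 12 genes in the 6 libraries (points), with the mean of each group (line) and its SD (bar, n = 3 time points). In all 12 genes the suckling and weaned libraries do not overlap, as was common over all genes tested. Angptl4, Pigr and Fkbp5 are nearly flat within the weaned group.

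Sterol and fatty acid synthesis did not move as a group on the deposited scale, where 1 of 37 measured genes passed as higher in weaned and 2 as higher in suckling, against 13 and 0 after median-ratio scaling. On the latter scale 10.5% of all genes tested passed as higher in weaned. Thrsp, a lipogenic protein induced by thyroid hormone, was called on both scales. It was at 1.62 to 1.65 FPKM in the suckling libraries and at 9.97, 3.57 and 3.39 FPKM in the weaned libraries, a rise of 1.20 ± 0.34. The W3 library had the highest sum of the list, 1377 FPKM against 835 to 1095 FPKM in the others. Mogat1, an enzyme that rebuilds fat from monoacylglycerol, rose by 3.33 ± 0.72 from 3.54, 10.4 and 42.3 FPKM to 110, 161 and 127 FPKM. Apoa1, the main protein of high-density lipoprotein, went from 195, 254 and 541 FPKM to 1259, 2270 and 2125 FPKM, a rise of 2.60 ± 0.40. It was the only called gene among 16 measured liver genes, and Alb was under 1 FPKM at W6 and W8.

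The called genes of the respiratory chain and of detoxification were mostly higher in weaned. Of 52 nuclear genes of oxidative phosphorylation, 15 were called higher in weaned and 0 higher in suckling. After median-ratio scaling 49 of the 52 passed as higher in weaned, beside 10.5% of all genes tested. The median was 0.44 as deposited (0.34 to 0.56 with a library left out) and 0.98 after median-ratio scaling. Cox5a, a subunit of cytochrome oxidase, rose by 0.86 ± 0.21 from 262, 362 and 432 FPKM to 640, 691 and 554 FPKM. Cycs, cytochrome c, rose by 0.77 ± 0.21. Among 45 measured detoxification genes, 16 were called higher in weaned and 3 higher in suckling, beside 3.33% and 7.82% of all genes tested. The medians were 0.61 and 1.14 on the 2 scales. Gsta1, a glutathione transferase, went from 154, 250 and 677 FPKM to 1313, 2036 and 1296 FPKM, a rise of 2.35 ± 0.50, and the carboxylesterase Ces1f rose by 2.63 ± 0.44. The aldehyde dehydrogenase Aldh3a1 differed by 2.98 ± 0.97 and passed on the deposited scale only. Cyp1a1, the cytochrome induced by ligands of the aryl hydrocarbon receptor, was at 0 to 0.0187 FPKM in the suckling libraries. In the weaned libraries it was at 2.17, 0.500 and 1.20 FPKM, a rise of 1.12 ± 0.26.

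Some secreted defence proteins were among the largest differences in each direction. Bpifb1, a secreted protein of the family that binds bacterial lipids, was among the highest genes of the suckling stomach, at 7762, 11845 and 5336 FPKM, and fell to 460, 134 and 38.9 FPKM. The difference was −5.86 ± 0.80 as deposited and −5.32 ± 0.80 after median-ratio scaling. Lyg1, a goose-type lysozyme, was at 116, 36.4 and 32.5 FPKM and then at 13.8, 0.760 and 0.0875 FPKM, a difference of −4.11 ± 0.96. Hamp2, a hepcidin peptide, was at 2.29 and 5.09 FPKM at D5 and W1, higher at W2, and at 125, 477 and 371 FPKM in the weaned libraries, a rise of 5.41 ± 0.64. Pigr, the receptor that carries IgA into the lumen, was at 0.271, 0.712 and 0.521 FPKM and then at 2.96, 2.88 and 3.02 FPKM, a rise of 1.41 ± 0.16. Igha, the IgA heavy chain, was listed at 0 in all 3 suckling libraries and at 0.0547, 1.40 and 3.49 FPKM in the weaned libraries, and was not called. Of 30 measured genes of mucosal defence, 4 were called higher in weaned and 2 higher in suckling, beside 3.33% and 7.82% of all genes tested, so the count higher in suckling was near that of all genes. The median moved from −0.25 as deposited to 0.05 after median-ratio scaling.

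Antigen presentation and interferon genes were called as higher in weaned only, on either scale. Of 29 measured, 10 were called higher in weaned and 0 higher in suckling, with medians of 0.31 (0.19 to 0.56 with a library left out) and 0.79. Cd74, the invariant chain of MHC class II, was at 32.7, 39.9 and 78.4 FPKM and then at 103, 92.7 and 85.8 FPKM, a rise of 0.98 ± 0.31, and the class II gene H2-Eb1 rose by 0.98 ± 0.28. Isg15, an interferon-induced ubiquitin-like protein, was at 4.58, 2.74 and 4.28 FPKM and then at 15.2, 24.5 and 6.34 FPKM, a rise of 1.59 ± 0.43. Both class II genes had neared their weaned level by W2, and Isg15 had not. On the leukocyte list, 2 of 27 measured genes, the lysozymes Lyz1 and Lyz2, were called higher in weaned and 0 higher in suckling. These counts stand beside 3.33% and 7.82% of all genes tested, and the medians were −0.28 and 0.01. As deposited only, 4 members of the list passed as higher in suckling, among them Csf1r (−1.27 ± 0.29). The gasdermin Gsdma2 and the galectin Lgals2, members of families that act in cell lysis and in sugar binding, rose by 3.33 ± 0.71 and 3.22 ± 0.63.

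Genes of fetal growth were called in 1 direction, as higher in suckling. Of 27 measured fetal growth and imprinted genes, 13 were called higher in suckling and 0 higher in weaned, with medians of −1.26 (−1.59 to −1.09 with a library left out) and −0.94. Igf2, a fetal growth factor, was at 143, 70.4 and 14.4 FPKM and then at 6.24, 2.98 and 3.24 FPKM, a difference of −3.45 ± 0.74. The imprinted RNA H19, which shares control elements with Igf2, went from 598, 255 and 58.9 FPKM to 30.3, 8.88 and 7.13 FPKM, and Dlk1, a Notch-like membrane protein, from 167, 98.1 and 17.7 FPKM to 5.99, 2.24 and 2.17 FPKM. The differences were −3.94 ± 0.85 and −4.03 ± 0.76. All 3 were lower at each time point from D5 to W6, with the largest ratio between W1 and W2, and the imprinted gene Nnat had the same order (−2.96 ± 0.53). Of 62 measured cell division genes, 29 were higher in suckling as deposited and 2 on both scales, beside 34.7% and 7.82% of all genes tested, with medians of −0.76 and −0.33. The count on both scales was thus no higher than among all genes. E2f1, a transcription factor of the G1/S transition, was among these 2, at 6.11 to 11.8 FPKM in the suckling and 2.22 to 4.31 FPKM in the weaned libraries (−1.34 ± 0.28).

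**Figure D5:**
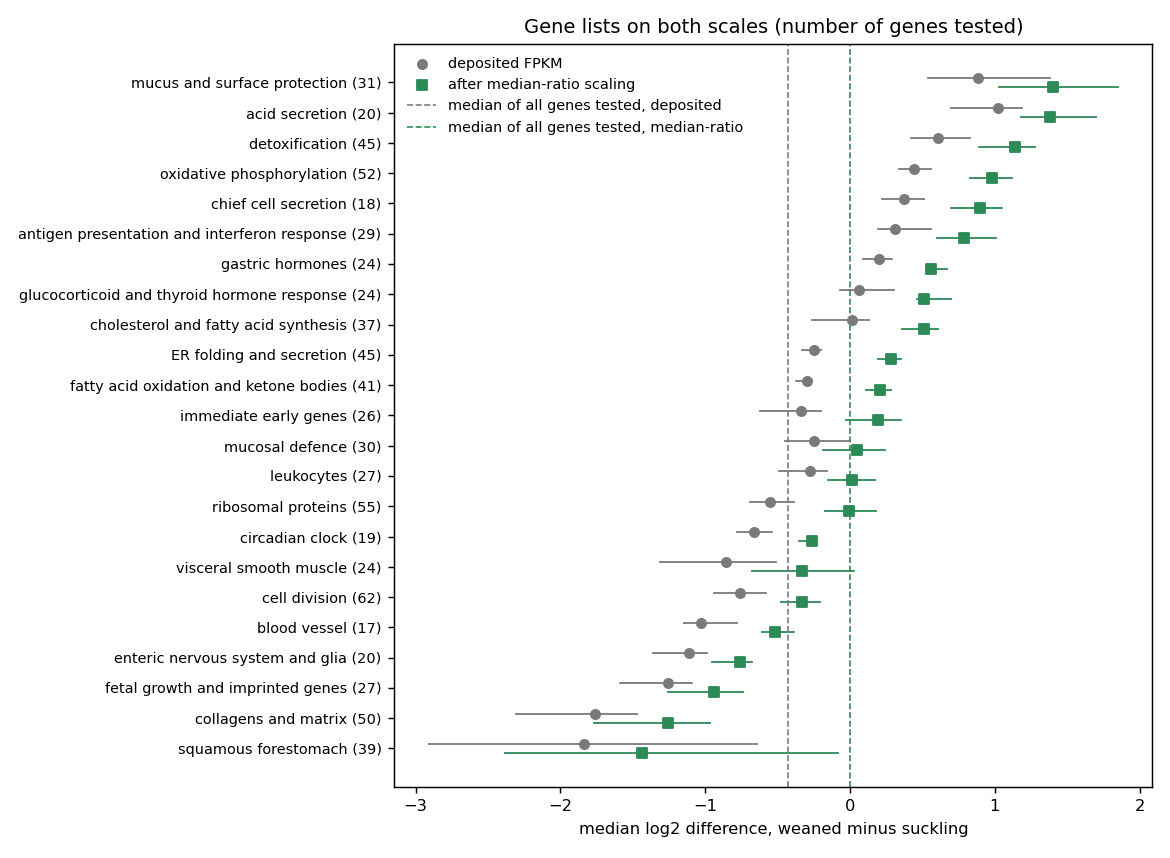
Median log2 difference (weaned minus suckling) of 23 gene lists on the deposited scale (circles) and the median-ratio scale (squares), with the range over fits with a library left out (lines) and the medians of all genes tested (dashed lines). Mucus and acid secretion lie highest, and matrix and squamous forestomach lie lowest, the latter with the widest range.

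Genes of matrix, nerve and vessel were called in 1 direction, as higher in suckling. Of 50 measured matrix genes, 13 were called higher in suckling and 0 higher in weaned. On the deposited scale 44 were higher in suckling, beside 34.7% of all genes tested. The medians were −1.76 (−1.47 without W8) and −1.26 (−0.97 without W8). Col1a1, a chain of fibrillar collagen, was at 1379, 1021 and 409 FPKM and then at 421, 88.3 and 57 FPKM, so that W3 was no lower than W2. It differed by −2.68 ± 0.76 and passed as deposited only. Elastin, Eln, was at 725, 646, 307 and 491 FPKM up to W3 and at 37.0 and 24.2 FPKM at W6 and W8, and was not called. Mfap2, a microfibril protein, fell by 3.37 ± 0.71, and the secreted Wnt regulator Sfrp2 by 3.35 ± 0.61 (log2). Of 20 measured genes of enteric neurons and glia, 13 were called higher in suckling, with medians of −1.11 and −0.76. Sox10, a glial transcription factor, was at 12.8, 9.42 and 7.26 FPKM and then at 3.14, 1.58 and 1.17 FPKM (−1.89 ± 0.29), and Gap43, a protein of growing axons, differed by −2.0 ± 0.41. Of 17 measured vessel genes, 5 were called higher in suckling, beside 7.82% of all genes tested. Among them was the endothelial claudin Cldn5 (−2.04 ± 0.38). None of 24 measured smooth muscle genes was called, and the median went from −0.86 as deposited to −0.33 after median-ratio scaling, or 0.03 on that scale without W8.

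The forestomach list rested on the W8 library. Of its 39 measured genes 1 was called, Krt15, a keratin of basal cells, at 259, 100 and 54.4 FPKM and then at 19.2, 5.11 and 1.87 FPKM (−4.0 ± 0.78). The median of the list was −1.84 as deposited and −1.44 after median-ratio scaling with W8, and −0.64 and −0.08 without it. Krt5, the partner of Krt15 in basal cells, was at 432, 150 and 145 FPKM and then at 84.6, 27.3 and 1.26 FPKM, and its difference of −3.59 ± 1.21 was not called. Krt17 differed by −3.29 ± 0.90 and passed as deposited only.

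Several clock genes were higher in suckling. Of 19 measured clock genes, 6 were called higher in suckling and 0 higher in weaned, beside 7.82% and 3.33% of all genes tested. On the median-ratio scale alone, 2 others passed as higher in weaned, beside 10.5% of all genes tested. The medians were −0.66 and −0.26. Dbp, a transcription factor whose level follows the clock, was at 12.2, 12.9 and 13.7 FPKM and then at 3.31, 2.66 and 3.81 FPKM, a difference of −1.72 ± 0.16 as deposited and −1.25 ± 0.15 after median-ratio scaling. Its relatives Tef and Hlf differed by −1.78 ± 0.22 and −1.35 ± 0.21, and the clock repressors Per3 and Per2 by −1.76 ± 0.22 and −1.14 ± 0.25. In each of these 5 genes every weaned library lay under every suckling library, as in 7958 of the 15476 genes tested as deposited. The hour of collection is not given in the sources used here, so hour and age cannot be told apart. Immediate early genes, which respond quickly to stimuli, including the handling of tissue, had 0 of 26 measured members called on both scales, and Egr1 differed by −1.58 ± 0.38 and passed as deposited only.

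Among 24 measured genes of glucocorticoid and thyroid hormone response, 6 were called higher in weaned and 3 higher in suckling, beside 3.33% and 7.82% of all genes tested. The medians were 0.06 as deposited and 0.51 after median-ratio scaling. Hsd11b2, the enzyme that inactivates glucocorticoid, was at 11.3, 15.9 and 15.8 FPKM and then at 3.85, 2.69 and 2.21 FPKM, a difference of −1.97 ± 0.22 as deposited and −1.52 ± 0.22 after median-ratio scaling. Fkbp5, a chaperone induced through the glucocorticoid receptor, was at 4.73, 4.71 and 4.85 FPKM and then at 9.67, 10.5 and 11 FPKM, a rise of 0.98 ± 0.14. Fkbp5 varied little within each group, while Hsd11b2 went on falling from W3 to W8. Thra, a thyroid hormone receptor, fell by 1.13 ± 0.20 (log2).

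Ribosomal protein genes and genes of protein folding in the ER differed between the scales. Of 55 measured ribosomal protein genes, 24 were higher in suckling as deposited and 0 after median-ratio scaling, beside 34.7% and 7.82% of all genes tested. The medians were −0.55 and −0.01. Of 45 measured ER genes, 1 was called higher in weaned, and the median changed sign from −0.25 to 0.28. None of 4 measured milk protein genes was called, and the list summed to at most 40.8 FPKM. Of the remaining lists of other tissues, 3 of 10 measured intestine genes and 1 of 7 adipose genes (Lpl) were called higher in weaned, 2 of 13 skeletal muscle genes were called higher in suckling, and 0 of 6 blood and 0 of 3 spleen and lymphoid genes were called.

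The timing of the changes was described without a test, since the calls themselves rest on the split between W2 and W3. Of the 516 genes called higher in weaned, 336 (65.1%) had the largest of their steps between neighboring time points from W2 to W3, and so did 661 (54.6%) of the 1210 called higher in suckling. Over all genes tested, 367 rose and 223 fell by more than 2-fold from W2 to W3 on the median-ratio scale. From D5 to W1 these counts were 107 and 174, from W1 to W2 256 and 211, from W3 to W6 200 and 286, and from W6 to W8 261 and 442, the last step leading to the library without forestomach. The time points lie days to weeks apart, so the steps are not rates.

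The fetal and newborn libraries place both directions in the longer course of development. Of the 516 genes called higher in weaned, 476 (92.2%) had a weaned mean above every fetal and newborn library on the deposited scale. Of the 1210 genes called higher in suckling, 957 (79.1%) had a suckling mean under their fetal mean. Another 157 (13.0%) had a suckling mean above every fetal library, and Cym, Pga5, Prok1, Bpifb1, Muc5b, Lyg1, Angptl4, Acot1, Acot2, Pyy and Hsd11b2 were among them. All these shares are on the deposited scale and were not set beside those of all genes tested. The 10 highest genes took 11.2% to 20.3% of the summed FPKM in the fetal libraries, less than in the suckling and weaned libraries. The part of this in the shares was not tested. Erdr1, with 345, 259 and 155 FPKM in the suckling and 6.41 to 36.0 FPKM in the weaned libraries (−3.87 ± 0.57), had already been at 86.9 to 405 FPKM in fetal life.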

How the data were processed

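RNA-Seq libraries of mouse stomach at 15 ages were deposited as 1 table each, and 6 were compared here. The values are FPKM that the authors made before deposit, in the table layout of Cufflinks. The submitters' processing notes name Bowtie 0.12.2, FastQC and GRCm38.p2. The methods of the study name other programs and, for the RNA extraction, liver, whereas the labels name stomach. Raw counts were not used here. Entries of a symbol were summed (44788 symbols, of which 1565 had more than 1 entry). Log2(FPKM + 1) values were compared between 3 suckling and 3 weaned libraries with limma 3.58.1 in R 4.3.3, over 15476 genes with at least 1 FPKM in any of the 6, with Benjamini-Hochberg adjustment and a threshold of 0.05. The test was repeated after median-ratio scaling (factors over 18045 genes). An exact permutation test of 3 against 3 could not go below p = 0.10, so none was made. The limma p-values measure the spread between time points, not between animals.

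The members and gene lists were chosen with earlier results of these data known. Named genes were, in each direction, the 15 with the largest difference among called genes whose groups did not overlap, predicted symbols aside, up to 4 members of each list by absolute difference, and 8 gastric genes that the study follows (Pgc, Pga5 and Cym, Muc6, Muc5b and Muc5ac, and Atp4a with Atp4b). Fkbp5, Cyp1a1, Alb, Pigr, Per2, Oxct1, Lyz1, Lyz2, Krt13, Rnu3b1, Rpph1, Xist, Ddx3y, Pnlip, Ctrb1, Cpa1 and Ins2 fall outside this rule and were named after their values were seen. On simulated data with 200 shifted genes among 15476, 88.8% of shifts of 2 and 99% of shifts of 3 (log2) were recovered, with 9 false calls. The simulated noise was independent between genes, without a shift of whole libraries or a change with age. The rule of both scales was not applied, so these values do not give the error of the calls above. Relative depth was read from entries that carry 1 fragment, found from the confidence bounds that the authors deposited beside each FPKM, and covers counting error only. Promoter sequences are from RefSeq (GRCm38.p6), and no genome was used. Some results that are withheld are not reported here. Alternatives were other scalings, pseudocounts, filters, variance models and samples. Scripts used Python 3.11.15, pandas 2.3.3 and NumPy 2.4.6.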

Additional observations from a re-analysis of the deposited data

How the results depend on the processing

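The genes called between suckling and weaned numbered 5901 on the deposited scale (535 higher in weaned, 5366 higher in suckling). They numbered 2839 after median-ratio scaling (1629 and 1210), 1455 after quantile normalization (782 and 673), 3827 with a fixed sum without the 10 highest genes (538 and 3289), 3639 without a filter on low values (255 and 3384), 9169 with D1 and D3 added to the younger group (999 and 8170), 652 on untransformed FPKM (81 and 571) and 2 at an adjusted p under 0.01 (1 and 1). With a library left out, the count ran from 2 (without W6) to 6712 (without W3), that of genes higher in weaned from 1 to 661 and that of genes higher in suckling from 1 to 6259. Median-ratio scaling with a library left out was chosen after seeing the data. There 0 genes passed without D5 (0 and 0, with 4116 at an unadjusted p under 0.05) and 3 without W1 (0 and 3). Without W2 3247 passed (1750 and 1497), without W3 2771 (1444 and 1327), without W6 2 (1 and 1) and without W8 3 (1 and 2). The cause of these differences was not tested, except that fewer libraries entered the fits. Of 839 values of 84 named genes under 10 settings with all libraries, 690 kept their direction and side of the threshold, 144 lost the call and 5 gained it. With a library left out, 422 of 1008 did, 579 lost the call and 7 gained it. No paired analysis was possible because each time point is 1 library and no number in the labels pairs the groups.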

Other observations

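Some immune genes were high in single libraries and were not called. Chil4, a chitinase-like protein of macrophages and epithelium, was at 0.390, 0.149 and 11.6 FPKM at D5, W1 and W2 and at 279, 49.1 and 0.205 FPKM at W3, W6 and W8. The mucosal mast cell protease Mcpt1 was at 0.809, 3.46 and 2.51 FPKM and then at 25.6, 14.4 and 1.99 FPKM. Both were highest at W3 and low at W8. These genes were named by the same rule.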
